A study of Mus musculus with 4 samples.

Results

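The genes described here are 10 members of the ATF4 response and of serine synthesis, read in mouse skeletal muscle: the transcription factor genes Atf4, Ddit3 and Xbp1, the stress-response genes Asns, Sesn2 and Fgf21, and the serine and glycine enzyme genes Phgdh, Psat1, Psph and Shmt2. They were taken by gene name and had 15 probes among the 41174 non-control probes (27597 genes) of the array. Of these, 13 probes for 9 genes passed background clearly on each of the 4 arrays (well above background in the scanner's terms), and the 2 Fgf21 probes on none. Muscle came from mice of 10 weeks with free access to food, in 4 genotypes of 1 array each: WT, Txnip-null (TBP-2-/- in the labels), ob/ob, and ob/ob Txnip-null (ob/ob TBP-2-/-, called the double mutant below). Txnip encodes thioredoxin-interacting protein, which binds thioredoxin and restrains glucose uptake. The ob/ob genotype leaves mice without working leptin, and they grow obese and insulin resistant. Strain, sex, the muscle taken, the deleted part of Txnip and the number of mice behind each RNA sample are not in the labels.

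ATF4 is a transcription factor whose translation increases when the initiation factor eIF2 is phosphorylated, as happens when amino acids are short, the endoplasmic reticulum is stressed or mitochondria fail. It pairs with C/EBP proteins on short composite elements and induces genes for amino acid uptake and synthesis, among them Asns and the serine pathway. That pathway takes a glycolytic intermediate through 3 enzymes, PHGDH, PSAT1 and PSPH, to serine, which SHMT2 splits in mitochondria to glycine and a one-carbon unit. Because ATF4 is regulated largely in translation and in protein stability, the Atf4 transcript is no direct reading of its activity.

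The stretches just upstream of the start sites show which members carry the letters of such an element. The sequences below are the 250 bases before the RefSeq start site (GRCm38.p6), 5′ to 3′ on the strand of the gene. They are given for the 3 members that were higher on both Txnip-null arrays (Asns, Phgdh and Psat1), for Ddit3 and for Fgf21. Ddit3 was the member furthest to the lower side without Txnip on the ob/ob background, and Fgf21 is the other member with a match. Capitals mark TGATGNAA, the C/EBP-ATF response element on which ATF4 and C/EBP proteins pair, and CCAAT, the box bound by NF-Y, each searched on both strands, so that a match on the other strand stands as its reverse complement. Psat1 has a second start site in the table, and the upstream one is shown.
Asns, chr6:7693210-7693459, - strand: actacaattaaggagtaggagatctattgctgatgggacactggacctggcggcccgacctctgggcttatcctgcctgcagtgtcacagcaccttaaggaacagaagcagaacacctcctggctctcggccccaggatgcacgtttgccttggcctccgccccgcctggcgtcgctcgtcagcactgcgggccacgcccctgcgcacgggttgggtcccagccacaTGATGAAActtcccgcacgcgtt
Fgf21, chr7:45615491-45615740, - strand: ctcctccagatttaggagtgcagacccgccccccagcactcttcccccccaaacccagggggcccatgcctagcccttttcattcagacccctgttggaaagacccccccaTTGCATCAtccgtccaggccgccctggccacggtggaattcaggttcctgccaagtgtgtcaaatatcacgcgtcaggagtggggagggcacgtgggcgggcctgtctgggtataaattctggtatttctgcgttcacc
Phgdh, chr3:98339970-98340219, - strand: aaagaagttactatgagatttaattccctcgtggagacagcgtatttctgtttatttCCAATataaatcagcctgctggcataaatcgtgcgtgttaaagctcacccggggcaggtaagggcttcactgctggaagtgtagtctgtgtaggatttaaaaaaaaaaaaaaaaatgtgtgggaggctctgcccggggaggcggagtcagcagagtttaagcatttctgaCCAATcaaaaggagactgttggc
Psat1, chr19:15925060-15925309, - strand: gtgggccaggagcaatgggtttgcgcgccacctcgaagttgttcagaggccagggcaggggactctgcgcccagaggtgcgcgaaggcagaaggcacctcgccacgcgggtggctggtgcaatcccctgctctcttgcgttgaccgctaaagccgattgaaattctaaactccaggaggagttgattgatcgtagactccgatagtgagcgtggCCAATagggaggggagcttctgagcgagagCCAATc
Ddit3, chr10:127290543-127290792, + strand: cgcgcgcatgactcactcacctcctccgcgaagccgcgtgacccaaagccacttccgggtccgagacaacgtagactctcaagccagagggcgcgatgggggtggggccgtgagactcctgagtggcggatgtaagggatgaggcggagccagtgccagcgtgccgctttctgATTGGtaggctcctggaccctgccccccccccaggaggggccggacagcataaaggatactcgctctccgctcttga

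TGATGNAA was found in 2 of the 10 members. In Asns it reads TGATGAAA on the strand of the gene, with its first base at -23 and its last at -16 from the start site. In Fgf21 it reads TGATGCAA on the other strand, from -139 to -132. The same letters were found in 3.45% of 32851 RefSeq promoters, in 9 of 28 other ATF4 target genes (32.1%), in 3 of 10 of the factors that pair with or relate to ATF4 and in 3 of 12 genes for cytosolic aminoacyl-tRNA synthetases (25%). They stood in 1 of 14 upstream kinases and eIF2 factors, 1 of 21 endoplasmic reticulum chaperones and XBP1 or ATF6 targets, and none of 18 glycine and one-carbon enzymes, 10 mitochondrial chaperones and proteases and 14 FGF21 receptors, sestrins and their partners. Phgdh, Psat1 and Psph held no match in these windows. CCAAT, which overlaps no TGATGNAA match here, was found in 6 of the 10 members, Atf4, Ddit3, Phgdh, Psat1, Psph and Sesn2, and in 33.8% of all promoters. These are matches of letters only. List genes whose name was not found among the promoters were left out, so that 12 of the 20 synthetases and 28 of the 33 other ATF4 target genes were searched. The shares over all promoters count each start site, whereas a member or list gene counts if any of its start sites matched. The lists of other ATF4 target genes and of related factors share genes, Atf3 among them.

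The arrays lay on 1 slide and in 1 scan. Between 22675 and 24221 probes were well above background, no spot was saturated, and no spot of a member was marked as an outlier. The targeted gene followed its label. In the order WT, Txnip-null, ob/ob and double mutant, which is kept throughout, the brighter Txnip probe had scaled signals of 13209, 793, 11981 and 177. Lep, the leptin gene, had 36.4, 101, 225 and 612, levels that do not check the ob/ob genotype, whose transcript is still made. A scaled signal is the processed signal brought to the 75th percentile of the WT array (292), so that the values of a probe can be set side by side across arrays; values of different probes cannot. Skeletal muscle was checked with 10 markers, such as Acta1, Ckm and Myh4, all of them well above background everywhere. Differences are given on the log2 scale with the SE of the scanner's error model, a technical error that leaves out how mice differ. With 1 array per genotype, a difference between 2 arrays has no replicate check, and "higher" and "lower" describe these arrays.

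Phgdh, the enzyme that commits the glycolytic intermediate to serine, had the widest range of the 9 measured members. Its scaled signals were 449.9 for WT, 838 for Txnip-null, 597 for ob/ob and 1514 for double-mutant muscle, a 3.37-fold span. Both arrays without Txnip were above both arrays with it. On the lean background it was 1.86-fold higher without Txnip (log2 difference 0.90 ± 0.20), and on the ob/ob background 2.54-fold higher (1.34 ± 0.20). It was also higher with the ob/ob genotype, by 0.41 ± 0.20 with Txnip and by 0.85 ± 0.20 without. Each of the 3 steps in its order, WT, ob/ob, Txnip-null, double mutant, was over 1.96 times its SE. Over all genes measured on both arrays, 329 (2.16%) had a higher difference than Phgdh on the lean background and 125 (0.808%) on the ob/ob background.

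The other Phgdh probes gave the same order of arrays. The main probe lies on chromosome 3 at 98398580 to 98398639 (mm8), and the second overlaps it at 98398576 to 98398606, so these are not separate readings of the transcript. The second had scaled signals of 148, 287, 202 and 475. The third, between 98399808 and 98400516, is apart from them and had 65.5, 122, 85.0 and 189. The 3 probes gave Txnip differences of 0.90, 0.96 and 0.90 on the lean and 1.34, 1.23 and 1.16 on the ob/ob background. The WT and ob/ob arrays of the third probe differed by 0.38 ± 0.22, less than 1.96 SE.

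Psat1, the aminotransferase of the next step, had scaled signals of 88.5, 123, 83.2 and 155 (chromosome 19, 15972499 to 15972558). The 2 arrays without Txnip were again the higher ones, while WT and ob/ob stood close together. Its difference was 0.47 ± 0.21 without Txnip on the lean and 0.89 ± 0.21 on the ob/ob background, 1.38-fold and 1.86-fold, under the 2-fold threshold in both. In the order of its arrays, the gap from WT up to Txnip-null was over 1.96 SE, and the gaps from ob/ob to WT and from Txnip-null to double mutant were not. With normexp background correction the differences were smaller, 0.25 and 0.61.

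Psph, the phosphatase that completes serine synthesis, did not share this order. Its scaled signals were 1196, 824, 966 and 1041 (chromosome 5, 130080276 to 130080335), highest in WT and lowest in Txnip-null muscle. The difference without Txnip was -0.54 ± 0.20 on the lean and 0.11 ± 0.20 on the ob/ob background. An overlapping probe, at 130080296 to 130080355, had 833, 602, 647 and 705 and differences of -0.47 and 0.12. No gap between neighbouring arrays in the order passed 1.96 SE for either probe.

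Shmt2, the mitochondrial enzyme that turns serine into glycine, varied least of the 9 members' main probes, 1.20-fold over the arrays. Its scaled signals were 1008, 922, 1029 and 858 (chromosome 10, 126920704 to 126920763). No neighbouring arrays differed beyond 1.96 SE, and its Txnip differences were -0.13 ± 0.20 and -0.26 ± 0.20. The 4 enzyme genes thus split by array: Phgdh and Psat1 were higher on both arrays without Txnip, Psph was lower on the lean one, and Shmt2 stayed within 1.20-fold.

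**Figure D1:**
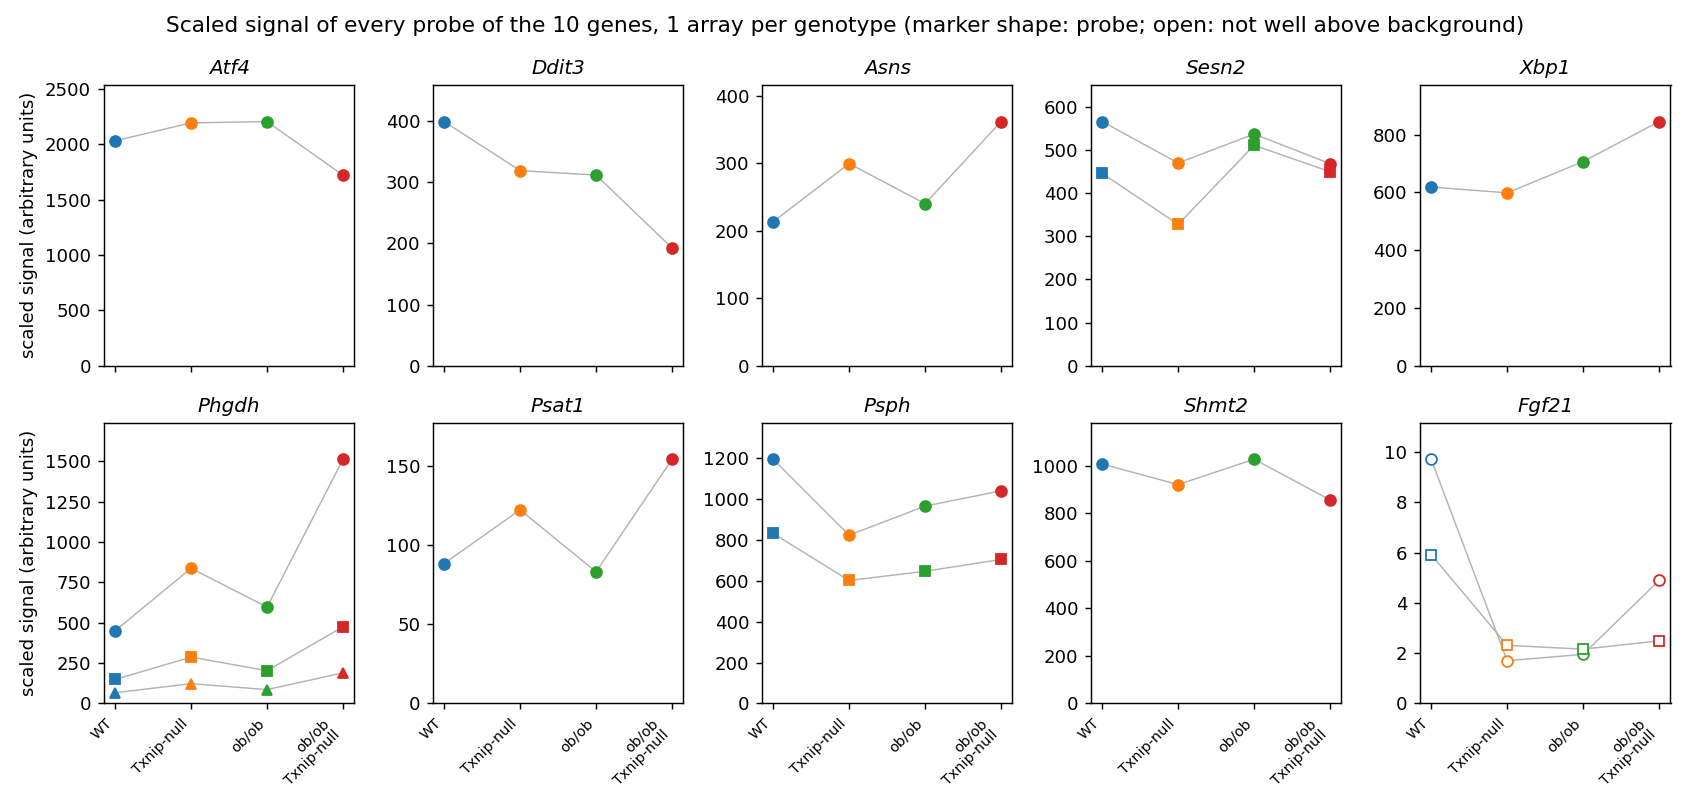
Scaled signal (arbitrary units, linear axis from 0) of each of the 15 probes by genotype, 1 point per array. Marker shapes separate probes of a gene, open points are not well above background, and the grey lines only link the points of a probe. The 3 Phgdh probes are highest in double-mutant (ob/ob Txnip-null) and lowest in WT muscle, Ddit3 is lowest in the double mutant, and both Fgf21 probes lie under 10.

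Asns, which makes asparagine and is among the best known ATF4 targets, had scaled signals of 213, 299.6, 240.1 and 362 (chromosome 6, 7625194 to 7625253). Its arrays stood in the same order as those of Phgdh, over a narrower 1.70-fold range. Without Txnip it was 1.40-fold higher on the lean (0.49 ± 0.21) and 1.51-fold higher on the ob/ob background (0.59 ± 0.21). None of the gaps between neighbours in the order was over 1.96 SE.

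Atf4 itself, whose protein drives the response, had scaled signals of 2032, 2194, 2206 and 1721 (chromosome 15, 80083904 to 80083963). WT, Txnip-null and ob/ob lay within 0.12 of each other on the log2 scale, and the double mutant was lowest. Its Txnip difference was 0.11 ± 0.20 on the lean and -0.36 ± 0.20 on the ob/ob background, so Phgdh, Psat1 and Asns were highest on the array where the Atf4 transcript was lowest. No gap between neighbouring arrays of Atf4 passed 1.96 SE.

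Ddit3 encodes CHOP, the C/EBP-family factor that ATF4 induces in prolonged stress. Its scaled signals were 399.6, 319, 312 and 193 (chromosome 10, 126698411 to 126698714), a 2.07-fold range with the double mutant lowest. The Txnip difference was -0.32 ± 0.20 on the lean and -0.70 ± 0.21 on the ob/ob background, where 352 genes (2.28%) had a lower one. In double mutant minus Txnip-null it was -0.73 ± 0.21. The double-mutant array was below its nearest neighbour, ob/ob, by more than 1.96 SE, and the other 3 arrays were not told apart from their neighbours.

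Xbp1, the factor spliced by IRE1 in endoplasmic reticulum stress, had scaled signals of 618, 598, 707 and 845 (chromosome 11, 5424970 to 5425029). The 2 ob/ob arrays were the higher ones, with ob/ob differences of 0.19 ± 0.20 with Txnip and 0.50 ± 0.20 without. Its Txnip differences were -0.05 ± 0.20 and 0.26 ± 0.20. The array reads total transcript and does not separate the spliced form.

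Sesn2, the stress-induced sestrin that restrains mTORC1 when leucine is short, had scaled signals of 567, 470.3, 538 and 469 (chromosome 4, 131765019 to 131765078). The 2 arrays without Txnip were lower, by 0.27 ± 0.20 and 0.20 ± 0.20, within 1.96 SE of 0. A second probe, at 131764135 to 131764194, had 446, 328, 511 and 450.1 and was lower by 0.44 ± 0.20 on the lean and 0.18 ± 0.20 on the ob/ob background. The probes disagreed on the ob/ob difference, with -0.08 and 0.20 with Txnip and -0.005 ± 0.20 and 0.46 ± 0.20 without.

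Fgf21, a hormone that ATF4 induces in stressed muscle, had scaled signals of 9.72, 1.70, 1.95 and 4.89 on its brighter probe (chromosome 7, 45481977 to 45482036). The other probe, at 45482352 to 45482966, had 5.92, 2.31, 2.16 and 2.49. No value was well above background, so no fold is given.

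**Figure D2:**
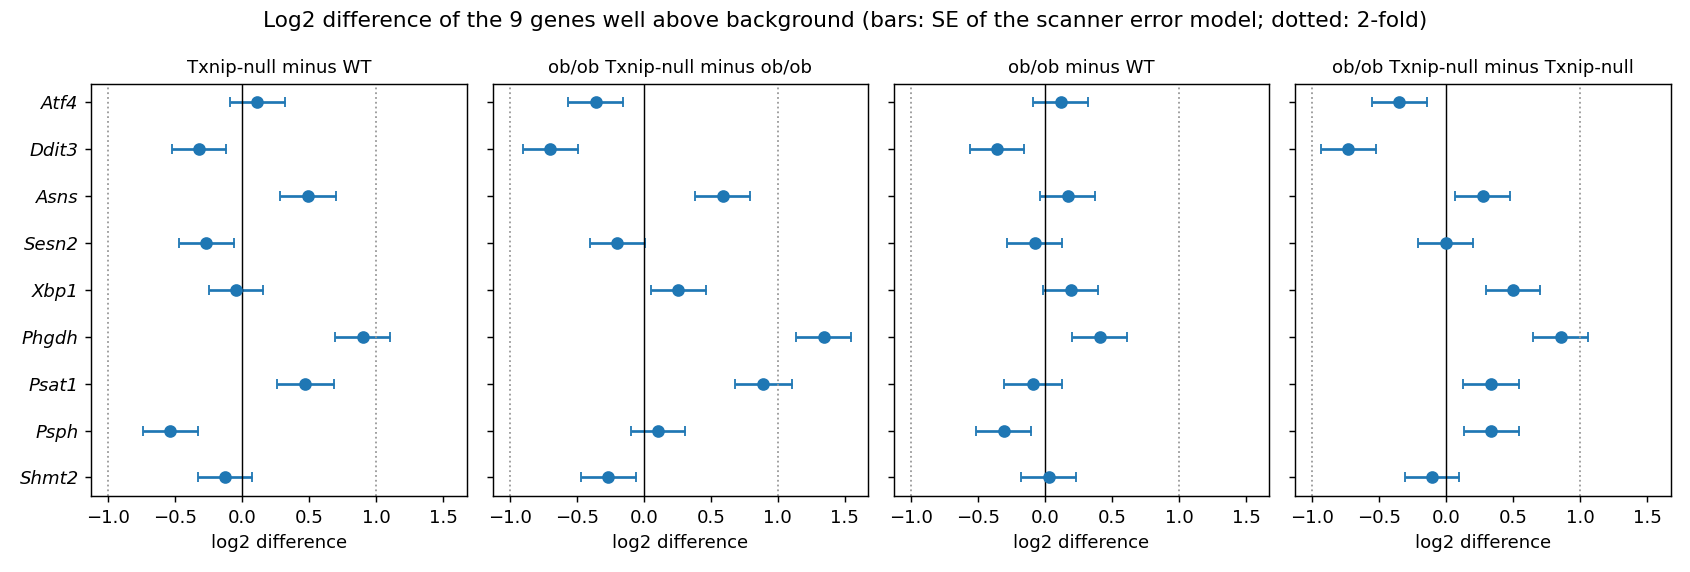
Log2 difference of the 9 members well above background in each of 4 comparisons (x axis), with bars for the SE of the scanner error model. Dotted lines mark 2-fold. Phgdh at 1.34 in double mutant minus ob/ob (second panel) is the only point past a dotted line.

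In double mutant minus ob/ob, 1 of the 9 measured members, Phgdh, was 2-fold or more different, beside 2.67% of 15461 genes (1.86% higher and 0.815% lower). In Txnip-null minus WT it was 0 of 9 members beside 2.61% of 15220 genes (1.73% higher and 0.88% lower). In ob/ob minus WT it was 0 of 9 members beside 3.56% of 15088 genes (1.9% higher and 1.66% lower), and in double mutant minus Txnip-null 0 of 9 members beside 3.36% of 15618 genes (1.79% higher and 1.57% lower). The difference of the Txnip effects, on the ob/ob minus on the lean background, passed 2-fold for 0 of 9 members beside 3.62% of 14908 genes (1.66% higher and 1.96% lower). The members' median differences were -0.05 (Txnip-null minus WT), 0.11 (double mutant minus ob/ob), 0.03 (ob/ob minus WT), 0.27 (double mutant minus Txnip-null) and 0.10 (the difference of the Txnip effects), where those of all genes were -0.07, 0.03, -0.04, 0.04 and 0.08. As a group the members therefore lay close to the bulk of genes, with the differences in single members, except in double mutant minus Txnip-null. There their median was 0.23 above that of all genes, with 5 members above 0 and 4 below.

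Txnip-null minus WT and double mutant minus ob/ob share no array. Asns, Phgdh and Psat1 were higher without Txnip in both, 3 of 9 members beside 24.8% of 14908 genes, and Ddit3, Sesn2 and Shmt2 were lower in both, 3 of 9 beside 31.0%. Atf4, Xbp1 and Psph had opposite signs in the 2 comparisons. These shares are near those of all genes.

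**Figure D3:**
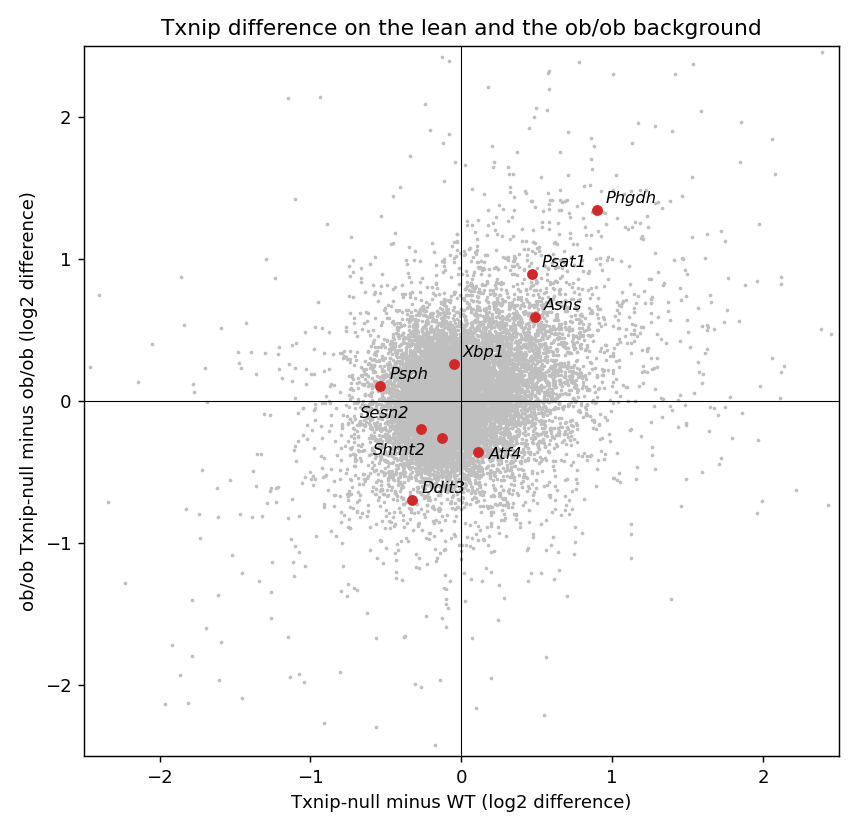
Log2 difference without Txnip on the lean background (x axis) against that on the ob/ob background (y axis) for 14908 genes (grey) and the 9 members (red); 39 genes lie outside the axes. Phgdh, Psat1 and Asns are on the upper right and Ddit3 on the lower left of the cloud.

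A test could be had only from an additive fit of both genotypes over the 4 arrays with limma, where the error is the departure from additivity. On simulated additive data the share of false calls was above 0.05 in most runs. The adjustment limits that share only on average over runs, so this count does not settle how far the adjusted p holds. Real departures from additivity were not simulated, and the calls are to be read with care. No member was called for either genotype, beside 15 of 16115 genes (0.0931%) for Txnip and 35 (0.217%) for ob/ob, while unadjusted p was under 0.05 for 1591 and 2213 genes. For Phgdh the fitted Txnip difference was 1.12 ± 0.19 (SE), with an unadjusted p of 0.002357 and an adjusted p of 0.2261 from limma. The other members with the smallest adjusted p for Txnip in this limma fit were Psat1 (0.68 ± 0.19, adjusted p = 0.3498), Asns (0.54 ± 0.16, 0.3814) and Ddit3 (-0.51 ± 0.18, 0.4615). For ob/ob, limma gave Phgdh 0.63 ± 0.19 (adjusted p = 0.2843) and Ddit3 -0.54 ± 0.18 (0.3146). With normexp correction Phgdh was called for both genotypes, with adjusted p of 6.189e-06 for Txnip and 0.0166 for ob/ob in limma; over all alternatives its adjusted p reached 1 and 0.8692.

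Scaling on the spiked-in RNA in place of the 75th percentile moved the median of all genes by 0.25, -0.51, 0.64, -0.12 and -0.76 in the 5 comparisons named above, and each member with it. Phgdh stayed higher in all 4 pairwise comparisons, from 0.83 to 1.14 in those of Txnip, but then passed 2-fold in Txnip-null minus WT (1.14) and ob/ob minus WT (1.05) and not in double mutant minus ob/ob (0.83), where Ddit3 did (-1.21). Psat1 and Asns stayed higher and Ddit3 and Sesn2 lower without Txnip on both backgrounds, but not all by more than the SE. Asns was then at 0.08 on the ob/ob background, and Ddit3 at -0.08 and Sesn2 at -0.02 on the lean one, each smaller than its SE. Shmt2 and Xbp1 turned higher on the lean background, Xbp1 and Psph turned lower on the ob/ob background, and Ddit3, Sesn2, Psat1 and Psph turned higher in ob/ob minus WT. In the order of the arrays, ob/ob then stood above Txnip-null for Asns and above the double mutant for Xbp1. Phgdh kept its order, but ob/ob (1.05 above WT) and Txnip-null (1.14 above WT) were then closer together than the SE of that step (0.20). Shmt2 was at 0.67 in ob/ob minus WT and -0.78 in double mutant minus ob/ob, so its narrow range did not hold with spike-in scaling. Differences relative to the median of all genes are the same under both scalings.

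Markers of fat, macrophages, fibroblasts, tendon and Schwann cells stood higher without Txnip on both backgrounds, as Phgdh, Psat1 and Asns did. Of 5 endothelial cell markers, 4 were higher on the lean and 2 on the ob/ob background. The 6 tendon markers had medians of 3.92 in Txnip-null minus WT, 4.22 in ob/ob minus WT and 0.47 in double mutant minus ob/ob. Their largest differences were thus between WT and the other arrays, with Txnip or without. With spike-in scaling, all 6 Schwann cell markers stayed higher in double mutant minus ob/ob. Only 3 of 6 fibroblast, 3 of 6 tendon, 2 of 6 macrophage and 0 of 5 endothelial cell markers were then higher there. All 8 adipocyte markers were higher without Txnip on both backgrounds, under spike-in scaling too, 3 of them 2-fold or more on the lean and 6 on the ob/ob background. Adipoq, the adipocyte hormone adiponectin, had scaled signals of 1291, 3194, 2042 and 5403. In 4 of the 8, Adipoq, Plin1, Cidec and Pparg, the arrays stood in the order of Phgdh and Asns, as they did in 810 of 14907 other genes (5.43%), in 5 of 6 Schwann cell and 3 of 6 fibroblast markers, and in none of the 10 skeletal muscle markers. Summed levels in units of each array's 75th percentile, which the brightest markers dominate, were 206, 312, 135 and 248 for adipocyte, 352, 496, 360 and 604 for fibroblast, 15.4, 35.2, 27.0 and 40.9 for Schwann cell, 55.0, 71.0, 53.8 and 63.7 for macrophage, 5.76, 30.2, 36.5 and 50.4 for tendon, 13.5, 15.3, 13.9 and 13.5 for endothelial cell and 38.8, 57.5, 2.58 and 11.7 for T and B cell markers. Those of skeletal muscle were 11498, 10263, 10500 and 11107. Every marker of fat, macrophages, fibroblasts, tendon, Schwann cells and endothelium could be measured on each array, whereas Apoa1 and Ttr of liver and Cd3g and Cd79a of lymphocytes never passed background. Alb, the liver gene for albumin, had scaled signals of 2.90, 10.3, 11.7 and 29.9 and passed background on the double-mutant array only. The part of other cells in the differences of Phgdh, Psat1 and Asns was not tested, and in whole muscle fewer cells of a type and less transcript per cell cannot be told apart.

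**Figure D4:**
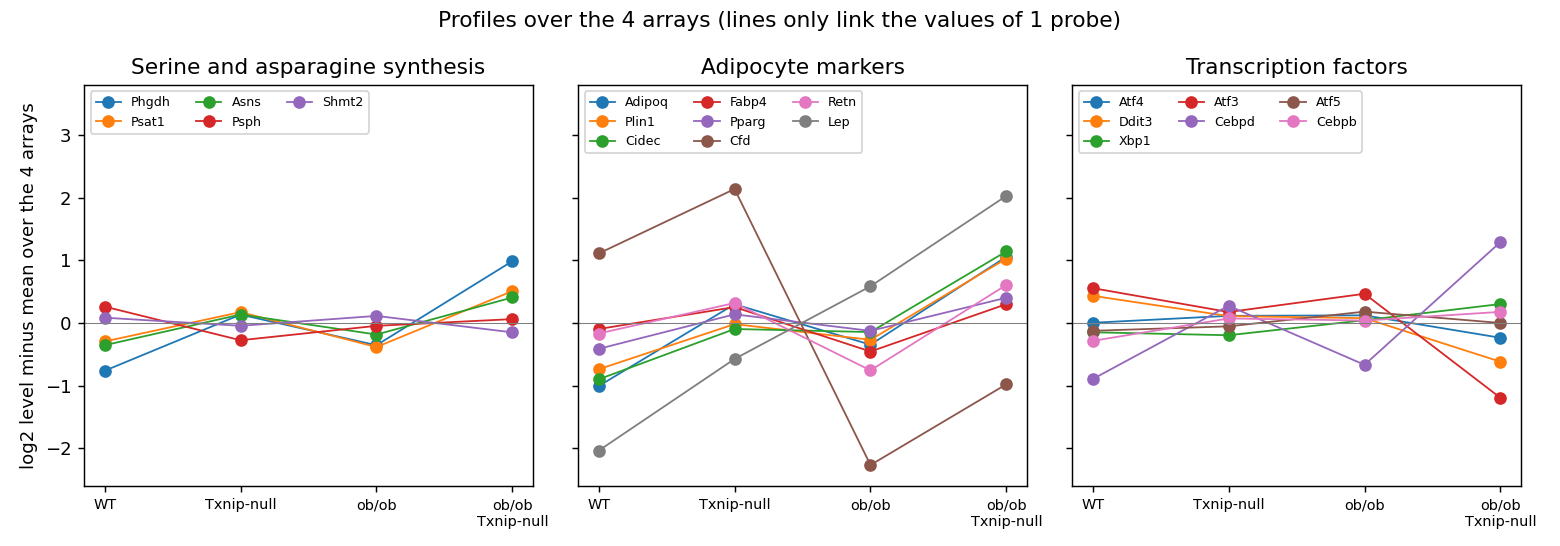
Log2 level of each gene minus its mean over the 4 arrays, by genotype, for the enzymes (left), the 8 adipocyte markers (middle) and transcription factors (right). The order of arrays of Phgdh is shared by 4 of the 8 adipocyte markers, Adipoq, Plin1, Cidec and Pparg, and not by the others. Ddit3 and Atf3 are lowest and Cebpd highest in the double mutant.

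Genes whose profile over the 4 arrays was nearest to those of the members with a 2-fold range were sought among 14908 genes, by Euclidean distance of centred log2 levels. For Phgdh they were the transcript AK015074 (0.03), Cpz, which encodes a carboxypeptidase (0.12), and 4931432P07Rik (0.13). For Ddit3 they were Tnp1 (0.05), Scn1a (0.08) and Lrrc27 (0.08). With 4 points a profile, these are descriptions only.

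Among 17 measured of 18 kinases and factors of eIF2 signalling upstream of ATF4, none was 2-fold different in any of the 4 comparisons. Their medians were -0.16 in Txnip-null minus WT, where that of all genes was -0.07, and -0.06 in double mutant minus ob/ob, where it was 0.03. Spike-in scaling, which shifts every list with the bulk of genes, brought them to 0.08 and -0.58. Eif2ak3, the endoplasmic reticulum kinase PERK, differed by 0.29 and 0.05 without Txnip, and Eif2ak4, the amino acid sensor GCN2, by -0.17 and -0.05; both were chosen after their values were seen.

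The 12 transcription factors that pair with or relate to ATF4 held larger differences. Cebpd, a C/EBP factor, had scaled signals of 5810, 13079, 6805 and 26469, 2.25-fold higher without Txnip on the lean (1.17 ± 0.20) and 3.89-fold higher on the ob/ob background (1.96 ± 0.20), with the same order of arrays as Phgdh. Atf3, a stress-induced repressor downstream of ATF4, had 850.1, 652, 798 and 252, and the double mutant was 3.16-fold below ob/ob (-1.66 ± 0.20) and 2.59-fold below Txnip-null (-1.37 ± 0.20). Like Ddit3, it was lowest on the double-mutant array. Nupr1, a stress-induced cofactor, was 2.25-fold higher in ob/ob minus WT (1.17 ± 0.20). Past 2-fold were 2 of 12 higher in Txnip-null minus WT (Cebpd and Batf3, the latter named after its value was seen), 1 higher and 1 lower in double mutant minus ob/ob (Cebpd and Atf3). The medians were 0.19 and 0.11, and 0.43 and -0.40 with spike-in scaling.

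Other ATF4 target genes stood on both sides. Of 31 measured in double mutant minus ob/ob, Chac1 and Ddit4 were 2-fold or more higher and Cth and Atf3 lower. Of 30 in Txnip-null minus WT, Chac1 was higher and Cth lower. The medians were 0.04 and 0.07, and -0.48 and 0.32 with spike-in scaling. In ob/ob minus WT 21 of 30 lay above 0 (median 0.22), where 45.2% of all genes did, and in double mutant minus Txnip-null 24 of 31 (median 0.21), where 56.0% did; with spike-in scaling the medians were 0.87 and 0.09. Past 2-fold there were Nupr1 and Aldh1l2 higher and Chac1 lower in the first, and Ddit4, Stc2 and Gpt2 higher and Chac1 and Atf3 lower in the second, with Aldh1l2, Stc2 and Gpt2 named after their values were seen. Chac1, which degrades glutathione and is a sensitive ATF4 target, had scaled signals of 7975, 17706, 2982 and 7150, 2.22-fold and 2.40-fold higher without Txnip and 2.67-fold and 2.48-fold lower with the ob/ob genotype. Ddit4, an mTORC1 inhibitor also induced by glucocorticoids, had 7668, 11379, 8395 and 34739.9, 4.14-fold higher in double mutant minus ob/ob (2.05 ± 0.20). Cth, the cystathionine gamma-lyase that makes cysteine, had 153, 19.7, 176 and 25.9, 7.78-fold (-2.96 ± 0.27) and 6.78-fold (-2.76 ± 0.26) lower without Txnip.

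Of 19 measured of 20 cytosolic aminoacyl-tRNA synthetase genes, many of which ATF4 induces, none was 2-fold different in any comparison. In Txnip-null minus WT 18 of 19 were below 0, with a median of -0.20, and in double mutant minus ob/ob 16 of 19, with a median of -0.15. On the same arrays Asns, Phgdh and Psat1 were higher. Over all genes 39.6% were above 0 in the first and 54.4% in the second comparison. With spike-in scaling the medians of the synthetases were 0.05 and -0.67, so their side in Txnip-null minus WT depended on the scaling.

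The enzymes of glycine and one-carbon metabolism beyond Shmt2 gave medians of -0.12 and -0.10 without Txnip, over 19 measured of 23 genes (0.12 and -0.61 with spike-in scaling). Gnmt, the glycine N-methyltransferase, had scaled signals of 246, 86.0, 172 and 81.5 and was 2.86-fold lower in Txnip-null minus WT (-1.52 ± 0.21). Aldh1l1, a cytosolic folate dehydrogenase, had 388, 157, 348 and 326 and was 2.47-fold lower there (-1.31 ± 0.21). Gnmt was also the 1 gene past 2-fold in double mutant minus ob/ob (-1.08 ± 0.21), named there after its value was seen.

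The 23 measured endoplasmic reticulum chaperones and XBP1 or ATF6 targets lay above 0 in 20 cases and below it in 3 in double mutant minus ob/ob, with a median of 0.26, and in 21 and 2 in double mutant minus Txnip-null, with a median of 0.22. These comparisons share the double-mutant array, on which Xbp1 was highest. None of the genes was 2-fold different in any comparison, and in Txnip-null minus WT the median was 0.02. With spike-in scaling the median in double mutant minus ob/ob turned to -0.25 and that in double mutant minus Txnip-null was 0.10. Hspa5, the chaperone BiP, had scaled signals of 8340, 8611, 7600 and 10338, and was chosen after its values were seen.

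Of 14 mitochondrial chaperones and proteases, 13 were below 0 in Txnip-null minus WT and 12 in double mutant minus ob/ob, with medians of -0.22 and -0.23, none of them 2-fold; with spike-in scaling the medians were 0.03 and -0.75. Among 16 measured FGF21 receptors, sestrins and their partners, Ppara, the fatty acid receptor that induces Fgf21 in liver, was the 1 gene past 2-fold without Txnip. It had scaled signals of 399, 212, 400 and 83.3, 4.80-fold lower in double mutant minus ob/ob (-2.26 ± 0.21). In double mutant minus Txnip-null it was -1.35 ± 0.21 and Klb, the FGF21 co-receptor beta-Klotho, was higher by 1.47 ± 0.26, named after its value was seen.

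**Figure D5:**
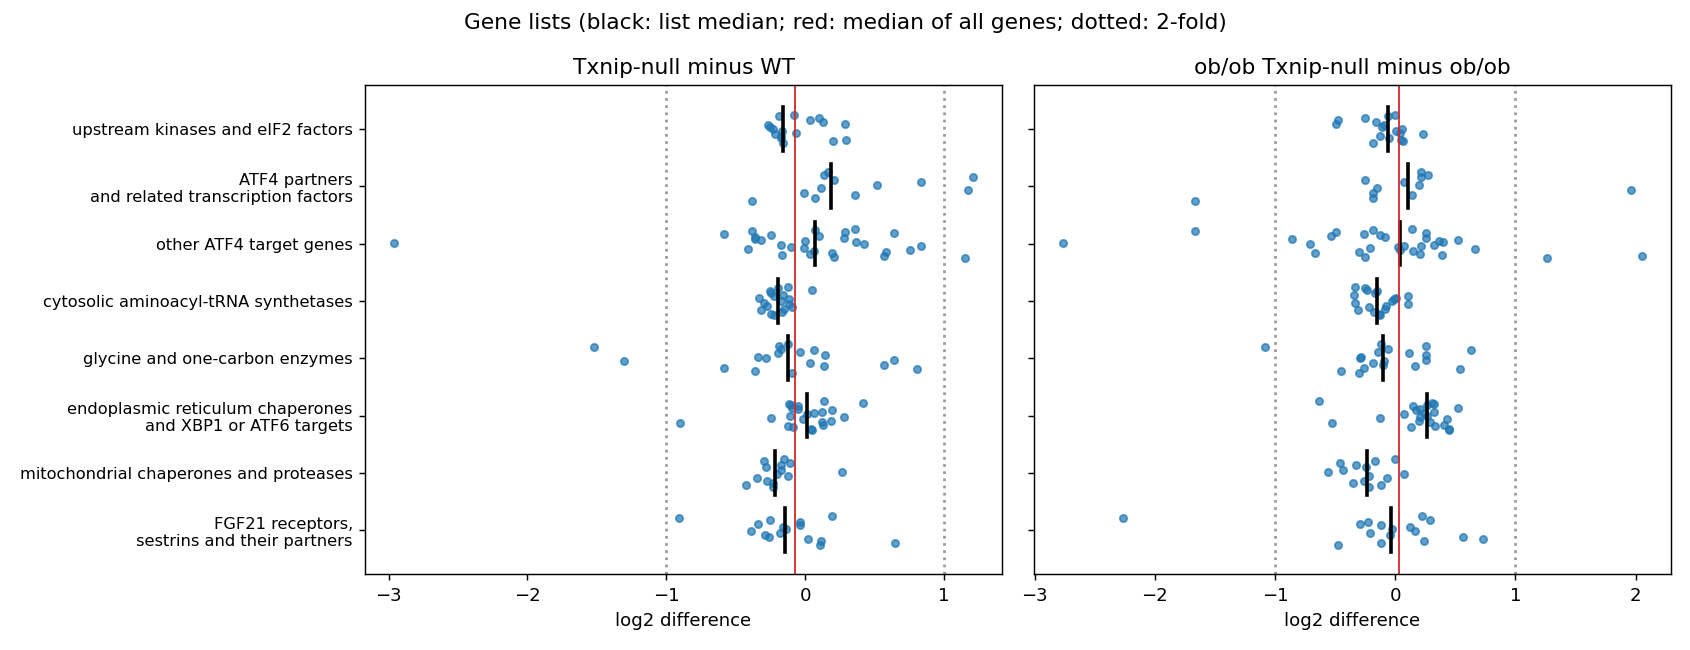
Log2 differences of every measured gene of 8 lists in Txnip-null minus WT (left) and double mutant minus ob/ob (right), 1 point per gene. Black bars are list medians, the red line is the median of all genes (-0.07 and 0.03), and dotted lines mark 2-fold. The medians of the synthetases and mitochondrial chaperones lie left of the red line in both panels, with single genes right of it. That of the endoplasmic reticulum list lies right of the line, further so on the ob/ob background. Spike-in scaling would move points and red line together.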

How the data were processed

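Total RNA of skeletal muscle was labelled with Cy3 from 0.5 micrograms together with spike-in RNA and hybridised to 1-colour Agilent mouse arrays, per the labels' protocols. Spot intensity was deposited as background-subtracted processed signal from Agilent Feature Extraction 9.5.3.1, per the file headers, with no scaling between arrays. The deposited value table holds log2 values of the same arrays that follow the scanner values with a slope of 1; its columns have medians of 0.09, -0.06, -0.01 and 0.01. The authors' centring there is on each probe, and the treatment of low values was not given in these sources.

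Levels were log2 of processed signal over the array's 75th percentile, with outlier spots left out and replicate spots averaged. A gene was its probe with the highest mean level; a comparison took genes well above background on both of its arrays, and a difference counted at 2-fold. The additive fit used limma 3.58.1 in R 4.3.3 over genes above background on at least 2 arrays, leaving 1 residual degree of freedom; genes were called at 0.05 after Benjamini-Hochberg adjustment over all genes tested. Tested on simulated additive data, the fit found most of the large changes put in. Its share of false calls was above 0.05 in most runs, a share that the adjustment limits only on average over runs. Alternatives were quantile normalization, scaling on 8 spike-in probes (set beside each gene list's median), normexp (offset 50), the median of a gene's probes, the value table, and no filter on dim probes.

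The members and gene lists were chosen with earlier results of these data known. Named were all members, Txnip, Lep and the 3 nearest profiles of members with a 2-fold range. Up to 5 genes per list and comparison were also named if past 2-fold under quantile and normexp processing too. Other names are marked, except cell type markers such as Adipoq and Alb, which were picked from their lists outside this rule.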

Additional observations from a re-analysis of the deposited data

Results flagged for a closer look

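Psph was lower without Txnip on the lean background (-0.54 ± 0.20). On the ob/ob background its difference had the other sign but was smaller than its SE (0.11 ± 0.20). The Txnip effects differed by 0.6449 on the log2 scale (SE 0.29). A second probe, which overlaps the first, differed by 0.59. The difference was not tested, as each genotype has 1 array, and with spike-in scaling it was -0.12. Of 14908 genes, 922 (6.18%) had a higher difference.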

How the results depend on the processing

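No paired analysis was possible because each genotype has 1 array, and no array could be left out. Of the values of single members recomputed under the alternatives, 337 stayed within their error or on their side of the threshold, 39 moved by more, and 2, the fitted differences of Phgdh under normexp, became called; none of the called values changed sign. Of the counts of genes and members and the member medians, 91 stayed close and 53 moved, by more than 1.5 times for a count. In the order of the report (Txnip-null minus WT, double mutant minus ob/ob, ob/ob minus WT, double mutant minus Txnip-null, and the difference of the Txnip effects), 264, 287, 287, 280 and 248 genes were 2-fold higher and 134, 126, 250, 245 and 292 lower. Spike-in scaling turned these to 506, 80 and 2105 higher and 84, 864 and 70 lower in the first 3 comparisons and to 41 higher and 3049 lower in the last, with member medians of 0.20, -0.41, 0.67 and -0.66 and members past 2-fold of 1, 1, 1 and 2 (Atf4 and Ddit3 in the last); the count of 1 in double mutant minus ob/ob was Ddit3 in place of Phgdh. Normexp gave 81, 103, 82, 96 and 75 higher and 57, 54, 112, 112 and 81 lower. Without a filter on dim probes they were 1307, 1371, 1186, 1367 and 1981 higher and 899, 746, 1112, 1093 and 1572 lower, with 1, 2, 1, 1 and 1 members past 2-fold, as Fgf21 then entered. The median of a gene's probes gave 204 lower in double mutant minus ob/ob and 448 lower in the difference of the Txnip effects. In the limma fit, 15 genes were called for Txnip and 35 for ob/ob, against 0 and 0 under quantile normalization (unadjusted p under 0.05 for 1600 and 2200), 97 and 234 under spike-in scaling, 518 and 954 under normexp with 1 member each, 12 and 10 with the median of probes, 14 and 32 from the value table, and 7 and 0 without the filter (1878 and 2081). The cause of these differences was not tested. What limits every value is 1 array per genotype, and for Fgf21 signals near background.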
